A study of Mus musculus with 16 samples.

Results

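The response of control liver to an overnight fast was described from 8 of the 16 libraries of the series, chosen by their labels, and over 13905 tested genes of the 53714 counted. Fasted WT denotes the 4 livers of Slc25a47hep+/+ mice after an overnight fast, and fed WT the 4 livers of Slc25a47hep+/+ mice in the fed state on chow. All mice were male and 9 weeks old, and the strain label of every group is C57BL/6 Slc25a47tm1c(EUCOMM)Hmgu, a conditional allele of the mitochondrial carrier gene Slc25a47. The labels name no Cre transgene for the WT mice, no number of hours for the fast and no hour of sampling. Livers of Slc25a47hep-/- mice (KO), 4 fasted and 4 fed, were used only to see where the fasting response of WT livers differed. Flash-frozen liver gave 500 ng of RNA per library for stranded poly(A) sequencing, and the deposited values are whole reads per gene. Levels are given as CPM, reads per 1 M gene reads after TMM scaling, and changes as log2 fold changes of fasted WT over fed WT from edgeR's quasi-likelihood F test. A gene was called where its Benjamini-Hochberg adjusted p over all tested genes was under 0.05.

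A liver deprived of food first spends its glycogen and then makes glucose from amino acids, glycerol and lactate for the brain and blood cells. It burns fatty acids released by adipose tissue, exports part of them as ketone bodies, and stops building fat and cholesterol. Glucagon, glucocorticoids and the nuclear receptor PPARα, which senses fatty acids, are known to drive the genes of oxidation and glucose output. Insulin acts through SREBP-1c, and glucose through ChREBP, to drive the genes of glycolysis and lipid synthesis in the fed state, while SREBP-2 controls cholesterol synthesis.

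Gene reads came to 19.8 to 24.8 M in the fasted WT libraries and to 20.6 to 27.3 M in the fed WT libraries. The first principal component of the 8 libraries held 58.1% of the variance and separated fasted from fed. Hepatocyte markers were abundant in all 8 libraries, as the label of liver would have it. The summed level of 10 of them, which include Alb, Ttr and Apob, was 135303 to 140110 CPM in fed WT. It was 107477, 108025, 150932 and 143119 CPM in fasted WT replicates 1 to 4. Alb alone had 1058731, 1100453, 2237035 and 1831349 reads in fasted WT, against 1918293, 2413642, 1982773 and 1878246 reads in fed WT livers. Fasted WT replicates 1 and 2 were thus the lowest libraries for both. The targeted gene Slc25a47, ENSMUSG00000048856, is intact by label in both groups and had 914, 1139, 889 and 854 CPM in fasted WT livers, against 460.4, 621, 628 and 835 CPM in fed WT livers. The groups did not overlap, but its log2 fold change of 0.58 ± 0.24 did not pass the test (adjusted p = 0.0780, but 0.0380 without fed WT replicate 4, 0.0204 by DESeq2's Wald test and 0.0182 with only the 8 WT libraries).

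Transcripts of pancreatic acinar cells, the enzyme-secreting cells of an organ that lies against the liver, were present in the fasted WT livers. The summed level of the 22 acinar genes found in the table was 8.17, 2012, 46.4 and 563 CPM in fasted WT replicates 1 to 4, against 25.2, 32.5, 25.02 and 26.5 CPM in fed WT. Replicates 2 and 4 stood far above the other 6 libraries. The fed sums were mostly reads of the elastase gene Cela1. It had 136, 3158, 198 and 992 reads in fasted WT, against 487, 795, 529 and 529 reads in fed WT. Fasted WT replicate 3 also held acinar reads, as Ctrb1 and Pnlip below show, so leaving out replicates 2 and 4 does not remove all of them. A count of 0 in a WT library allows up to 3 reads, or 0.120 to 0.161 CPM, for counting error only. The chymotrypsinogen gene Ctrb1 had 1, 4994, 115 and 1334 reads in fasted WT, against 0, 0, 0 and 0 reads in fed WT livers, and the pancreatic lipase gene Pnlip had 0, 4191, 88 and 1156 reads in fasted WT, against 0, 0, 0 and 0 reads in fed WT livers. Most acinar genes had few or no reads in fed WT and passed the filter on low counts through libraries that carry acinar transcripts. Their calls are therefore descriptions only. Of the 17 acinar genes tested, 16 were called higher with all libraries, against 16.2% of all genes, and 16 by DESeq2's Wald test. In the fit with the replicate block 5 were called higher, and Ctrb1 and Pnlip were not called (adjusted p = 0.0833 and 0.108). Without fasted WT replicate 2 alone 6 were called higher, and without fed WT replicates 1 and 2 none was. Without fasted WT replicates 2 and 4 0 were called higher by edgeR (1 at an unadjusted p under 0.05) and 1 lower, the elastase gene Cela1 (-1.73, adjusted p = 0.000694). Every result below was therefore computed also without both. A fasting call that ended or arose is given with its gene, and a list count that moved by over 1.5 times with its list. The part of pancreatic RNA in the liver genes was not tested. The second departure, in acute-phase genes of replicates 1 and 2, is described with those genes.

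Fasted and fed WT livers differed in a large share of the transcriptome. With all libraries 2252 genes were called higher and 2547 lower in fasted WT livers, which is 16.2% and 18.3% of the genes tested. Of these, 539 (3.88%) were at least 2-fold higher and 511 (3.67%) at least 2-fold lower. Among the 4799 called genes 3989 had no overlap between the 4 fasted and the 4 fed libraries. The fasted libraries lay above all fed ones in 15.2% and below all of them in 17.6% of the genes tested, called or not. The median log2 fold change over all genes was -0.019. Without fasted WT replicates 2 and 4, 1734 of the higher (77.0%) and 1848 of the lower calls (72.6%) were called again and none was called in the opposite direction. The labels do not say that each library came from a separate animal, so p-values measure the spread between these libraries, which may be technical. Genes are named by a rule on size, level and list order, which asks the largest changes to be without overlap, and other members of the lists were named after their values were seen. In whole tissue, fewer cells of a type and less RNA per cell cannot be told apart.

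**Figure D1:**
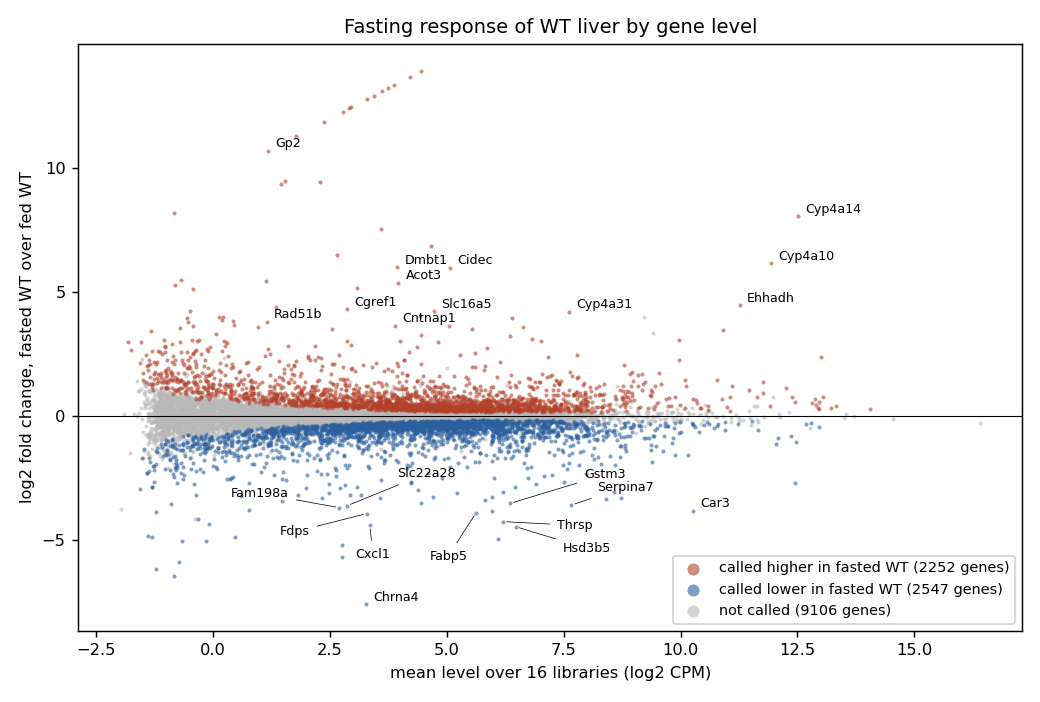
Mean level of each tested gene over the 16 libraries (x axis, log2 CPM) against its log2 fold change in fasted WT over fed WT livers (y axis). Each point is a gene; the 2252 genes called higher and the 2547 called lower are coloured, and the named genes are the largest changes described in the text. The unlabelled points above Gp2 are genes of the acinar list and an unlisted Riken gene.

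Of the 12 largest rises 6 were in genes of fatty acid handling. Cyp4a14, a cytochrome P450 of fatty acid omega-hydroxylation and a PPARα target on GRCm38 chromosome 4, 115486200 to 115496142 (reverse strand), had 9148, 11779, 11906 and 11619 CPM in fasted WT livers, against 36.7, 5.51, 59.9 and 65.4 CPM in fed WT livers. Its log2 fold change of 8.05 ± 0.70 (SE; adjusted p = 2.08e-06 by edgeR) was the largest among the called genes with a mean of at least 2 CPM outside the pancreatic ones, and its relatives Cyp4a10 and Cyp4a31 followed at 6.15 ± 0.46 and 4.20 ± 0.37. Reads shared between these close paralogs were not assigned, so their split is uncertain. Cidec, which fuses lipid droplets, had 35.6, 64.2, 67.2 and 54.2 CPM in fasted WT livers, against 0.811, 1.20, 0.556 and 0.882 CPM in fed WT livers. The fatty acyl-CoA thioesterase Acot3 rose by 5.36 ± 0.68 and the peroxisomal bifunctional enzyme Ehhadh by 4.47 ± 0.23. For each of these 6 genes the lowest fasted library lay above the highest fed one, which the naming rule required.

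Other genes of the largest rises belong to no list. The monocarboxylate transporter Slc16a5 rose by 4.23 ± 0.33, the recombination gene Rad51b by 3.80 ± 0.30, the contactin-associated protein gene Cntnap1 by 3.65 ± 0.33 and the secreted calcium-binding protein gene Cgref1 by 4.31 ± 0.40. None of these 4 overlapped between the groups, as the naming rule required. Dmbt1, a secreted scavenger protein gene, had 52.3, 108, 4.46 and 14.3 CPM in fasted WT livers, against 0.254, 1.64, 0.139 and 0.588 CPM in fed WT livers. The groups did not overlap, again by the rule (6.00 ± 1.16), and replicates 1 and 2 were the highest fasted libraries. Gp2, a zymogen granule gene of the pancreas, was also among the largest rises by the naming rule, with 2, 546, 16 and 132 reads in fasted WT, against 0, 0, 0 and 0 reads in fed WT livers; its call (adjusted p = 0.0233) ended without fasted WT replicate 2 (adjusted p = 0.0531) and without replicates 2 and 4 (adjusted p = 0.210).

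The largest falls held genes of lipid synthesis, given with their groups below, and of transport and hormone binding. Chrna4, a nicotinic receptor subunit gene, had 0.0530, 0.215, 0.0446 and 0.207 CPM in fasted WT livers, against 44.4, 29.4, 11.6 and 15.4 CPM in fed WT livers, the fasted levels resting on few reads (1, 4, 1 and 4 reads in fasted WT, against 876, 737, 250 and 315 reads in fed WT livers). Its log2 fold change was -7.58 ± 0.68 (SE; adjusted p = 1.72e-06 by edgeR), and fed WT replicates 1 and 2 were above replicates 3 and 4. Car3, a carbonic anhydrase abundant in male mouse liver and in adipose tissue, had 291, 195, 230.0 and 127 CPM in fasted WT livers, against 3004, 2906, 3112 and 2919 CPM in fed WT livers. Every fasted library lay below every fed one (-3.82 ± 0.33). Fabp5, a fatty acid binding protein gene (-3.89 ± 0.41), the orphan transporter gene Slc22a28 (-3.61 ± 0.22), the thyroxine-binding globulin gene Serpina7 (-3.59 ± 0.29), the glutathione transferase gene Gstm3 (-3.52 ± 0.38) and Fam198a (-3.69 ± 0.23) fell likewise. All 7 genes were without overlap, which the naming rule required.

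Changes were also ranked on the CPM scale, which weights long and abundant transcripts. Among called genes, the largest gains were in Mat1a, Cyp4a14, Cyp4a10, Ehhadh, Bhmt, Cyp2e1, Mug1 and the mitochondrial gene mt-Nd5. Mat1a makes the methyl donor S-adenosylmethionine, Bhmt remethylates homocysteine with betaine, and Mug1 is a protease inhibitor of plasma. The largest losses among called genes were in the desaturase gene Scd1, Car3 and the fibrinogen genes Fga, Fgb and Fgg. Others were the transthyretin gene Ttr, Mup3 and the plasma inhibitor gene Pzp. Mup3 (-0.45 ± 0.14) belongs to the major urinary proteins, whose near-identical copies leave its counts uncertain, and its call ended without fasted WT replicate 2 (adjusted p of 0.0686) and without replicates 2 and 4 (adjusted p = 0.144). Pzp (-0.32 ± 0.11, adjusted p = 0.0361) was not called without replicates 2 and 4 (adjusted p = 0.290), nor without fasted WT replicate 2, 3 or 4 or fed WT replicate 1 or 2 (adjusted p of 0.0831, 0.101, 0.108, 0.0666 and 0.104).

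Mitochondrial fatty acid oxidation rose as a group. Of its 22 genes, 18 were called higher and 1 lower, against 16.2% and 18.3% of all genes. The median log2 fold change was 1.03 against -0.019 over all genes, and the counts were the same without replicates 2 and 4. Cpt1a, which admits long-chain fatty acids to the mitochondrion, had 1057, 1164, 1143 and 978 CPM in fasted WT livers, against 403, 453, 458 and 476 CPM in fed WT livers. The groups were far apart relative to their spread, with a log2 fold change of 1.28 ± 0.083 (SE; adjusted p = 2.00e-09 by edgeR). Its partners at the membrane followed, the carnitine carrier Slc25a20 at 1.27 ± 0.099 and the plasma membrane carnitine transporter Slc22a5 at 2.01 ± 0.23, as did Acsl1, which links fatty acids to coenzyme A, at 1.44 ± 0.10. Of the enzymes of the cycle itself, medium-chain dehydrogenase Acadm rose by 1.39 ± 0.10, the trifunctional subunits Hadha and Hadhb by 1.06 ± 0.084 and 1.17 ± 0.11, and the isomerase Eci1 by 1.23 ± 0.078. The member called lower was Acadsb (-0.59 ± 0.065), a dehydrogenase of branched-chain substrates, and Echs1, Acaa2 and Etfa were not called (-0.048, 0.17 and 0.16).

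Peroxisomal and microsomal oxidation, which shorten very long chains and hydroxylate fatty acids, moved in the same direction. Here 18 of 19 genes were called higher and 1 lower, against 16.2% and 18.3% of all genes, and the median was 1.23. Ehhadh, the second enzyme of the peroxisomal cycle, had 3829, 5377, 5888 and 5964 CPM in fasted WT livers, against 228, 194, 252 and 279 CPM in fed WT livers. In the same cycle the thiolases Acaa1a and Acaa1b rose by 1.06 ± 0.081 and 2.25 ± 0.17, Hsd17b4 by 1.07 ± 0.077 and Ech1 by 1.23 ± 0.093. The member called lower was Pecr (-0.36 ± 0.085), a peroxisomal enoyl-CoA reductase that lengthens rather than shortens chains.

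Among the 9 genes of ketone bodies 6 were called higher and 2 lower, against 16.2% and 18.3% of all genes. Bdh1, the dehydrogenase that makes hydroxybutyrate from acetoacetate, had 243, 258, 237 and 307 CPM in fasted WT livers, against 179.5, 163, 198 and 176 CPM in fed WT livers. The groups did not overlap, at a log2 fold change of 0.54 ± 0.085 (SE; adjusted p = 6.01e-05 by edgeR). The thiolase Acat1 rose by 0.65 ± 0.098 and the exporters Slc16a1 and Slc16a7 by 0.74 ± 0.12 and 1.36 ± 0.13. Aacs, which returns acetoacetate to lipid synthesis in the cytosol, fell (-3.25 ± 0.32). Slc16a6, a further monocarboxylate transporter, was called lower (-1.26 ± 0.33) and was not called without replicates 2 and 4 (-1.23, adjusted p = 0.0689).

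Lipid droplet genes, fatty acid uptake genes and thioesterases rose in 20 of 26 tested members and fell in 1, against 16.2% and 18.3% of all genes. The median was 1.06, and the counts were 18 and 1 without replicates 2 and 4. On the droplet surface Cidec rose by 5.98 ± 0.26 and the coat proteins Plin2 and Plin5 by 0.74 ± 0.16 and 1.17 ± 0.22. Plin2 had 759, 927, 1281 and 1031 CPM in fasted WT livers, against 602, 633, 522 and 633 CPM in fed WT livers. The groups did not overlap, and fasted WT replicate 1 was nearest to the fed livers. Lipolysis genes moved both ways: the triglyceride lipase Pnpla2 and the monoglyceride lipase Mgll rose by 1.16 ± 0.12 and 1.57 ± 0.11, the lipase inhibitor G0s2 rose by 1.52 ± 0.36, and the lipase coactivator Abhd5 was the member called lower (-0.64 ± 0.12). The thioesterases Acot1, Acot2, Acot3 and Acot4, which sit in a cluster of close copies, were at 3.61, 3.65, 5.36 and 2.16. The fatty acid transporters Slc27a1 and Slc27a2 rose by 3.03 ± 0.13 and 1.21 ± 0.082, and the pantetheinase Vnn1, a PPARα target, by 3.01 ± 0.20.

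**Figure D2:**
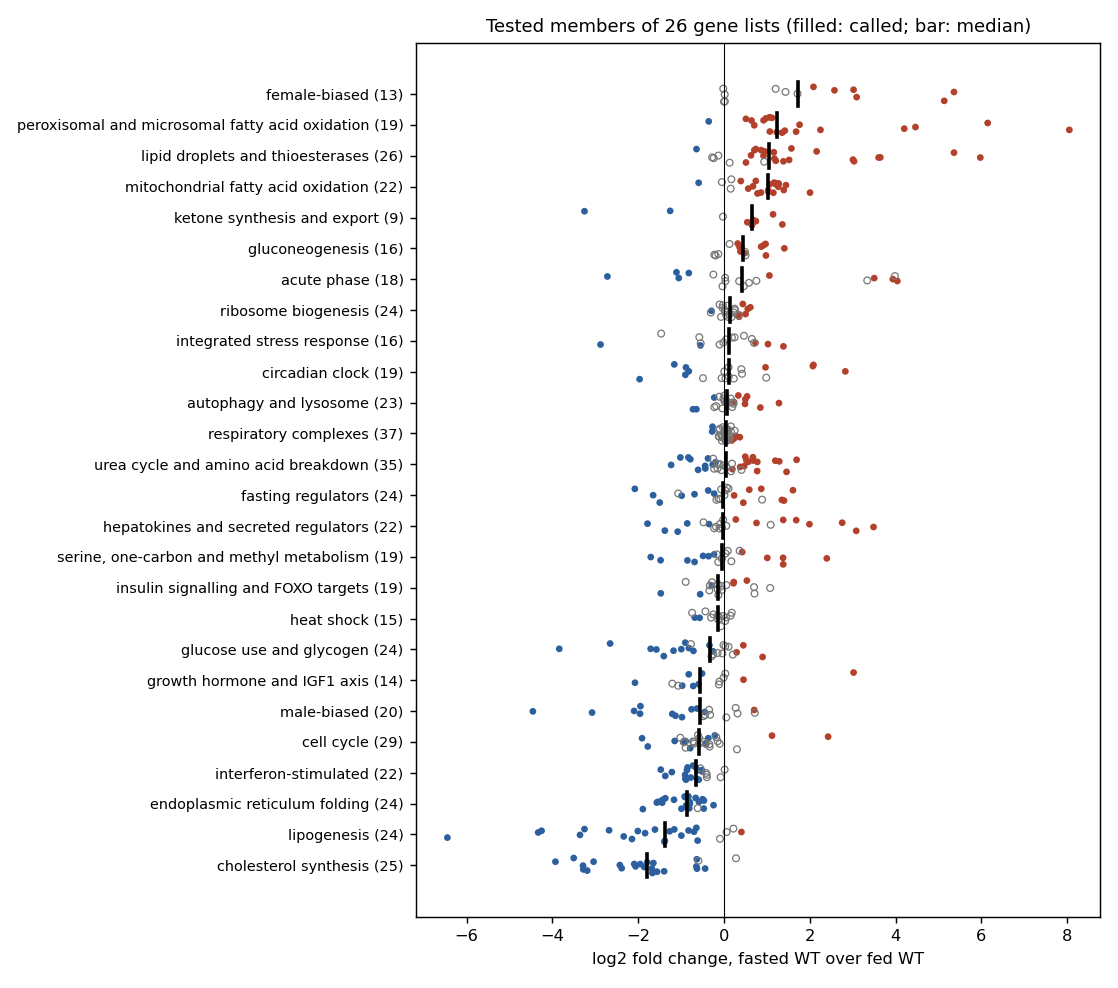
Log2 fold change in fasted WT over fed WT livers (x axis) of the tested members of 26 gene lists (rows), one point per gene, filled where the gene was called, with the list median as a vertical bar. The oxidation lists lie to the right of 0 and the lipid synthesis, cholesterol and endoplasmic reticulum lists to the left, with medians of 1.03 for mitochondrial oxidation and -1.79 for cholesterol synthesis.

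Lipid synthesis fell. Of 24 genes 20 were called lower and 1 higher, against 18.3% and 16.2% of all genes. The median was -1.38, and the counts were the same without replicates 2 and 4. Fasn, the fatty acid synthase, had 49.7, 66.8, 50.6 and 56.6 CPM in fasted WT livers, against 829, 563, 391 and 509 CPM in fed WT livers. Its log2 fold change was -3.36 ± 0.21 (SE; adjusted p = 1.16e-08 by edgeR), and the fed libraries, with replicates 1 and 2 above 3 and 4, all lay far above the fasted ones. Upstream of it, the transcription factor gene Srebf1, which gives SREBP-1c, fell (-1.84 ± 0.20), as did the citrate carrier Slc25a1 (-0.70 ± 0.062) and the ATP-citrate lyase Acly (-2.34 ± 0.17). Downstream, the desaturases Scd1 (-2.68 ± 0.30) and Fads1 (-1.16 ± 0.095) fell. Thrsp, a small protein of lipogenic tissues, fell further (-4.25 ± 0.30), and so did the lipid droplet lipases Pnpla3 (-4.33 ± 0.65) and Pnpla5 (-6.45 ± 1.01). Pnpla5 was at 0.0538 CPM in fasted WT replicate 2 and at 0 CPM in the other fasted WT livers, so the size of its fall is uncertain. The member called higher was the elongase Elovl5 (0.41 ± 0.13), whose call ended without fasted WT replicate 3 or fed WT replicate 2, 3 or 4 (adjusted p of 0.0978, 0.0630, 0.0694 and 0.0564).

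Cholesterol synthesis fell in nearly the whole pathway, with 23 of 25 genes called lower and 0 higher, against 18.3% and 16.2% of all genes. The median was -1.79. The squalene epoxidase gene Sqle had 9.02, 15.1, 15 and 4.08 CPM in fasted WT livers, against 125, 137, 76.5 and 83.0 CPM in fed WT livers. It fell without overlap, at -3.28 ± 0.34. Members at each stage followed: Hmgcs1 (-1.95 ± 0.17), Pmvk (-2.06 ± 0.13) and Fdps (-3.93 ± 0.23) before squalene, and Nsdhl (-3.04 ± 0.18), Sc5d (-1.65 ± 0.10) and Dhcr7 (-1.79 ± 0.13) after it. Fdps has processed copies elsewhere in the genome, so its count is uncertain. Of the regulators, Srebf2, which gives SREBP-2, was at -0.63 ± 0.092 and Insig1, which holds SREBP in the endoplasmic reticulum, at -2.39 ± 0.28. Hsd17b7 (0.28) was among the members not called, and it was called higher without fasted WT replicate 4 (adjusted p = 0.0120) and without replicates 2 and 4 (adjusted p = 0.0259).

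Genes of glucose use were mostly lower where called. Of 24 genes of glycolysis, fructose use and glycogen 12 were called lower and 3 higher, against 18.3% and 16.2% of all genes (median -0.31). Pklr, the liver pyruvate kinase at the end of glycolysis, had 39.6, 60.1, 49.6 and 41.9 CPM in fasted WT livers, against 355, 292, 268 and 289.9 CPM in fed WT livers. The groups were far apart, with a log2 fold change of -2.66 ± 0.14 (SE; adjusted p = 9.19e-10 by edgeR). The ChREBP gene Mlxipl fell (-1.71 ± 0.11), and so did the fructokinase Khk (-0.90 ± 0.077). In glycogen metabolism the phosphorylase Pygl (-1.40 ± 0.068) and the branching enzyme Gbe1 (-1.0 ± 0.092) fell while the synthase Gys2 rose (0.90 ± 0.15). Pfkfb1, which sets the level of a fructose bisphosphate that drives glycolysis, was not called (-0.29).

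Gluconeogenesis genes were higher where called. Of 16 genes 10 were called higher and 0 lower, against 16.2% and 18.3% of all genes (median 0.45). The counts were 9 and 0 without replicates 2 and 4. The glycerol kinase Gk, which brings glycerol into the pathway, had 235, 273, 305 and 291 CPM in fasted WT livers, against 85.2, 97.8, 113 and 121 CPM in fed WT livers. Pyruvate carboxylase Pcx rose by 0.87 ± 0.080, glycerol phosphate dehydrogenase Gpd1 by 0.93 ± 0.092, and the aminotransferases Gpt2, Got1 and Gpt by 0.97 ± 0.12, 0.98 ± 0.18 and 0.49 ± 0.091. Pck1, the phosphoenolpyruvate carboxykinase long used as a fasting marker, had 5256, 5700.3, 5005 and 5590.5 CPM in fasted WT livers, against 3372, 3104, 4798 and 5019 CPM in fed WT livers. Its groups overlapped, and its change of 0.40 ± 0.13 was called (adjusted p = 0.0234) but not without replicates 2 and 4 (adjusted p = 0.158) nor without fasted WT replicate 2 or 4 or fed WT replicate 1 or 2 (adjusted p of 0.0599, 0.0506, 0.0851 and 0.0844). G6pc, which releases free glucose, had 925, 1035, 1069.8 and 619 CPM in fasted WT livers, against 798, 984, 967 and 1513 CPM in fed WT livers. It was not called (-0.22 ± 0.19, adjusted p = 0.395).

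Genes of insulin signalling and of its factor FOXO1 were called about as often as genes at large. In that list 3 of 19 genes were called higher and 3 lower, against 16.2% and 18.3% of all genes, and with scaling by library totals 1 was higher. Left-out libraries moved these counts too, to 1 higher without fasted WT replicate 3 or fed WT replicate 1 or 3, to 1 lower without fasted WT replicate 2 and to 0 lower without fed WT replicate 1. Irs2, the insulin receptor substrate, had 37.3, 46.7, 65.9 and 27.7 CPM in fasted WT livers, against 95.4, 35.8, 40.5 and 53.9 CPM in fed WT livers. Igfbp1, a secreted binding protein of IGF1, had 271, 448, 499 and 277 CPM in fasted WT livers, against 490.0, 349.6, 230.3 and 369.9 CPM in fed WT livers. Neither was called (-0.34 and 0.054; adjusted p = 0.468 and 0.895), and fasted WT replicate 3 was the highest fasted library for both. Enpp1, an inhibitor of the insulin receptor, rose by 0.53 ± 0.080.

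Transcription regulators of the fasted liver moved both ways, with 7 of 24 called higher and 7 lower, against 16.2% and 18.3% of all genes (5 and 5 without replicates 2 and 4). Ppargc1a, the coactivator of oxidation and glucose genes, had 35.4, 38.6, 24 and 46.8 CPM in fasted WT livers, against 13.9, 8.23, 17.8 and 15 CPM in fed WT livers. It rose by 1.40 ± 0.28 without overlap. The kinase gene Sik1, induced by glucagon signals, rose by 1.61 ± 0.27, the orphan receptor Esrra by 0.87 ± 0.14, the receptor gene Nr1i3 (CAR) by 1.35 ± 0.23 and the liver factor Creb3l3 by 0.45 ± 0.086. Ppara itself was at 0.59 ± 0.17, a call that ended without replicates 2 and 4 (0.53, adjusted p = 0.0950). The coactivator gene Cited2 fell (-0.69 ± 0.14), as did the early response gene Egr1 (-1.5 ± 0.31). The glucocorticoid-induced factors Klf9 and Klf15 were not called (-0.065 and 0.066).

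Secreted regulators included the fasting hormone of the liver. Fgf21 had 7.58, 11.9, 14.7 and 11.7 CPM in fasted WT livers, against 3.19, 1.72, 3.06 and 3.72 CPM in fed WT livers. It rose by 1.99 ± 0.43 without overlap, although at few reads (143, 221, 330 and 227 reads in fasted WT, against 63, 43, 66 and 76 reads in fed WT livers). Of 22 genes of this list 8 were called higher and 5 lower, against 16.2% and 18.3% of all genes. The counts were 8 and 3 without replicates 2 and 4, and 3 were lower also without fasted WT replicate 2 or fed WT replicate 4. The apolipoprotein gene Apoa4 had 1532, 4569.9, 4002 and 2953 CPM in fasted WT livers, against 283, 344, 304 and 233 CPM in fed WT livers. Fasted WT replicate 1 was the lowest of the fasted libraries and still above every fed one. Retsat, a retinol saturase induced by PPAR receptors, rose by 3.08 ± 0.18, the binding protein gene Igfbp2 by 1.68 ± 0.14, the retinol carrier gene Rbp4 by 0.76 ± 0.077, and the leptin receptor gene Lepr by 2.76 ± 0.33. The activin genes moved apart, Inhbe at 1.38 ± 0.24 and Inhba at -1.38 ± 0.19. Angptl4, an inhibitor of lipoprotein lipase and a PPAR target, had 157, 269, 226 and 328 CPM in fasted WT livers, against 174, 259, 260.4 and 299 CPM in fed WT livers. It was not called (-0.019, adjusted p = 0.956).

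**Figure D3:**
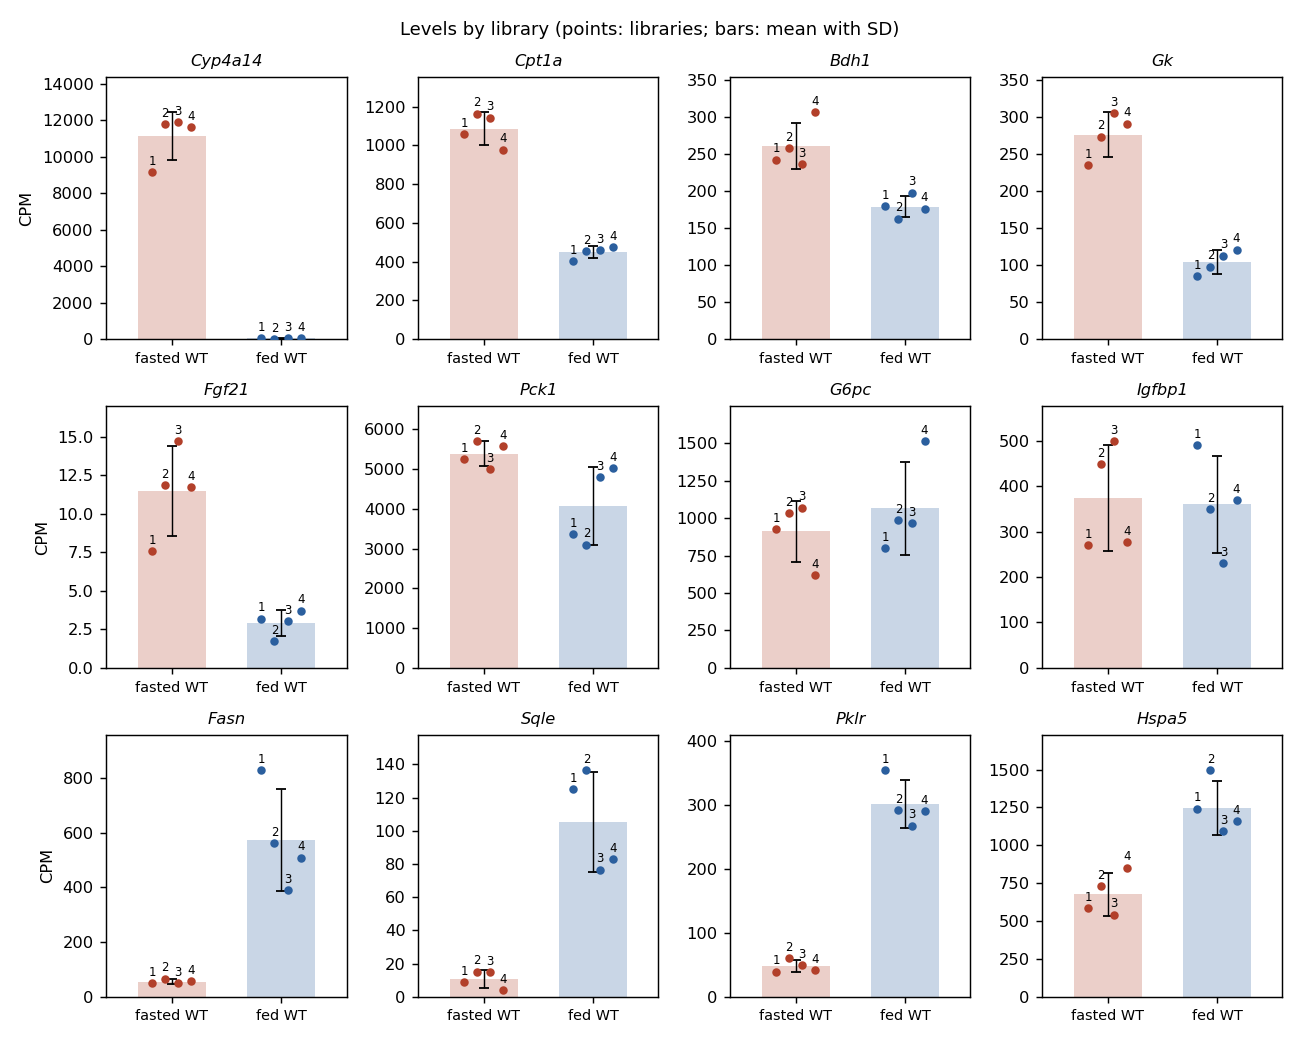
Level of 12 genes (panels; y axis, CPM from 0) in the 4 fasted WT livers (left) and the 4 fed WT livers (right). Points are libraries labelled by replicate number and bars are group means with SD. Cyp4a14, Cpt1a, Bdh1, Gk and Fgf21 are higher and Fasn, Sqle, Pklr and Hspa5 lower without overlap, whereas the fasted and fed points of Pck1, G6pc and Igfbp1 overlap.

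In the growth hormone axis 2 of 14 genes were called higher and 6 lower, against 16.2% and 18.3% of all genes (median -0.55). The growth hormone receptor gene Ghr had 385, 337, 335 and 332 CPM in fasted WT livers, against 694, 628, 714 and 690.2 CPM in fed WT livers. It fell without overlap (-0.97 ± 0.094), and its signal transducer Stat5b (-0.72 ± 0.089) and the IGF1 carrier subunit Igfals (-0.59 ± 0.13) fell with it. Cish, a feedback inhibitor that STAT5 induces, was at -2.08 ± 0.47. Igf1 itself was not called (0.031, adjusted p = 0.852). Cux2, a repressor with higher levels in female liver, rose by 3.02 ± 0.74. Genes more abundant in male than in female liver were called lower in 11 of 20 and higher in 1, against 18.3% and 16.2% of all genes. Without replicates 2 and 4 the counts were 7 and 0. The steroid enzyme Hsd3b5 had 18.2, 8.55, 14.2 and 13.8 CPM in fasted WT livers, against 295, 337, 288 and 284 CPM in fed WT livers. The elongase Elovl3 (-1.95 ± 0.20), the hydrolase Nudt7 (-1.96 ± 0.15) and the selenium-binding protein gene Selenbp2 (-3.08 ± 0.56) also fell. Of 13 tested genes with higher levels in female liver 6 were called higher and 0 lower, against 16.2% and 18.3% of all genes. Among them Cyp17a1, a steroid hydroxylase, rose by 3.09 ± 0.24 and the monooxygenase Fmo2 by 2.09 ± 0.20. Cyp2b9 had 4, 2, 6 and 1 reads in fasted WT, against 2, 3, 6 and 3 reads in fed WT livers.

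Genes of amino acid breakdown moved both ways. Of 35 genes 14 were called higher and 10 lower, against 16.2% and 18.3% of all genes. With scaling by library totals 13 were higher and 13 lower, against 13.4% and 20.8% of all genes. In the urea cycle the lyase Asl had 1268, 1186, 1219.8 and 929 CPM in fasted WT livers, against 271, 319, 379 and 455 CPM in fed WT livers. It rose by 1.69 ± 0.17, with Cps1 at 0.57 ± 0.11 and Arg1 at 0.67 ± 0.15, whereas Otc fell (-0.60 ± 0.14) and Ass1 was not called (0.052). Ornithine aminotransferase Oat rose by 1.46 ± 0.10, the lysine enzyme Aass by 1.20 ± 0.098, the tyrosine enzyme Hpd by 0.78 ± 0.076 and the histidine ammonia-lyase Hal by 0.77 ± 0.16. In the kynurenine branch Haao fell (-1.02 ± 0.079) while Tdo2, its first enzyme, rose (0.68 ± 0.10). Tat, the glucocorticoid-induced tyrosine aminotransferase, was at 0.41 ± 0.16 (adjusted p = 0.0577, and called without fed WT replicate 4 or fasted WT replicate 3, at 0.0409 and 0.0482, by DESeq2's Wald test at 0.0272, with DESeq2's size factors in edgeR at 0.0480, with the replicate block at 0.0425 and with only the 8 WT libraries at 0.0171). The cationic amino acid transporter Slc7a2 rose by 1.19 ± 0.10 and the mitochondrial branched-chain carrier Slc25a44 fell (-0.87 ± 0.070).

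Methyl metabolism was led by Mat1a, on GRCm38 chromosome 14, 41105035 to 41124412 (forward strand), which had 14084, 14117, 15650.4 and 12696 CPM in fasted WT livers, against 2408, 2841, 2567 and 2919 CPM in fed WT livers. All fasted livers lay far above all fed ones, at 2.40 ± 0.094 (SE; adjusted p = 2.99e-12 by edgeR). Ahcy, which clears S-adenosylhomocysteine, rose by 1.01 ± 0.091, Bhmt by 1.38 ± 0.19 and Nnmt, which spends methyl groups on nicotinamide, by 1.38 ± 0.23. Gamt, which spends them on creatine, fell (-1.48 ± 0.13), as did Aldh1l1, which oxidises formyl folate (-0.69 ± 0.10). In all 5 of 19 genes of the list were called higher and 7 lower, against 16.2% and 18.3% of all genes. The serine synthesis genes were near the limit of detection: Psat1 had 14, 22, 20 and 10 reads in fasted WT, against 20, 19, 7 and 10 reads in fed WT livers.

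Protein folding in the endoplasmic reticulum fell almost throughout. Of 24 chaperone, translocon and degradation genes 23 were called lower and 0 higher, against 18.3% and 16.2% of all genes. The median was -0.85, and the counts were the same without replicates 2 and 4 (median -0.99). Hspa5, the chaperone BiP at the head of this pathway, had 585, 729, 543 and 853 CPM in fasted WT livers, against 1241, 1496, 1092 and 1157 CPM in fed WT livers. Its log2 fold change was -0.88 ± 0.15 (SE; adjusted p = 0.000155 by edgeR), and the highest fasted library lay below the lowest fed one. The disulphide isomerases Pdia6 and Pdia4 were at -1.44 ± 0.12 and -0.80 ± 0.11, the chaperone cofactor Sdf2l1 at -1.89 ± 0.32, and the folding factors Manf, Hyou1 and Creld2 at -1.43 ± 0.24, -1.57 ± 0.24 and -1.17 ± 0.32. Of the machinery that passes new chains through the membrane, Sec61b, Sec61a1 and Ssr1 were at -1.37 ± 0.096, -0.99 ± 0.075 and -0.92 ± 0.073. Xbp1, a transcription factor of the unfolded protein response, was at -0.91 ± 0.18. Herpud1 (-0.61, adjusted p = 0.0836) was the member not called, and it was called lower without fasted WT replicate 4 (adjusted p = 0.0226) and without replicates 2 and 4 (adjusted p = 0.00149).

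Some promoters of this group hold the endoplasmic reticulum stress element, bound by NF-Y at its first part and by ATF6 at its second. Its letters are CCAAT and CCACG with 9 bases of any kind between them, and it was searched on both strands from 250 bases before to 50 after each gene's start in RefSeq promoters of GRCm38.p6. A match was found at 37 of 27025 genes (0.137%), at 19 of the 10446 tested genes with a promoter in the table, and at 8 of the 21 genes of the folding list with one (38.1%). The list was written from general knowledge to hold genes of the unfolded protein response, so its share of matches is not independent of that choice. The sites of these 8 genes are shown as the matches within the list, where 23 of 24 genes were called lower with or without a match. Each is written in the element's own direction, with the fixed letters in capitals and the spacer in lower case.
Hspa5 (chr2:34772025-34772043): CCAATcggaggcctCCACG
Pdia6 (chr12:17266491-17266509): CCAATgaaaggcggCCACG
Hsp90b1 (chr10:86705533-86705551): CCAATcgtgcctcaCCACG
Hsp90b1, second site (chr10:86705638-86705656): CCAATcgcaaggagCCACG
Calr (chr8:84847075-84847093): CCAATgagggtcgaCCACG
Canx (chr11:50325800-50325818): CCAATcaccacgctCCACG
Dnajc3 (chr14:118937827-118937845): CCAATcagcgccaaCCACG
Creld2 (chr15:88819520-88819538): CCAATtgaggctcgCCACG
Derl3 (chr10:75893242-75893260): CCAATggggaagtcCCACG
The base of the element farthest from the gene start lies 65 bases before the start of Hspa5, 98 before that of Pdia6 and 107 and 212 before that of Hsp90b1. Log2 fold changes of the 8 genes ran from -1.54 for Derl3 and -1.44 for Pdia6 to -0.47 for Hsp90b1, the gene with 2 sites. The call of Derl3 (adjusted p = 0.0386) ended without fasted WT replicate 1 or 3 or fed WT replicate 1, 2 or 3 (adjusted p of 0.10, 0.106, 0.0545, 0.0835 and 0.0895).

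Of the 11 tested genes outside the list with the element 4 were called lower and 1 higher, against 18.3% and 16.2% of all genes, and 6 were not called. The lower ones were Xlr3a (-1.67), Syvn1 (-1.35), Acacb (-1.27) and Pan2 (-0.43), and the higher one was Acnat2 (1.5). The call of Xlr3a (adjusted p = 0.0229) ended without fasted WT replicate 1, 2 or 3 or fed WT replicate 1 (adjusted p of 0.0648, 0.0631, 0.063 and 0.0642). Syvn1 encodes a ubiquitin ligase of the endoplasmic reticulum and Acacb an acetyl-CoA carboxylase. Creld2 shares its site with Alg12, a mannosyltransferase gene that starts in the other direction from the same interval and was not called (-0.40, adjusted p = 0.0598, and 0.0484 without replicates 2 and 4). The promoter stretches before the starts of Hspa5 and Pdia6 show the element, in capitals, in its context on the forward strand.
Hspa5 (chr2:34771920-34772089): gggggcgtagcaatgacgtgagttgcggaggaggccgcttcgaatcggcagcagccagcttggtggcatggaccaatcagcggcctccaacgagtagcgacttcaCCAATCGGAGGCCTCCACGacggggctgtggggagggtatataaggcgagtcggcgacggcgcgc
Pdia6 (chr12:17266439-17266588): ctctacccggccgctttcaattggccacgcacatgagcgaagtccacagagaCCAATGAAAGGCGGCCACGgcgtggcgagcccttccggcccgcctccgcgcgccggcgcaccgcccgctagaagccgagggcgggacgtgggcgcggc
Other motifs were searched in the same windows. The cAMP element TGACGTCA stood in 0 of 21 promoters of the folding list and 1 of 13 of gluconeogenesis, against 3.43% of tested genes, and the sterol element TCACNCCAC in 1 of 17 cholesterol synthesis promoters, against 1.48% of tested genes. The cAMP element variant TTACGTCA stood in 1 of 13 gluconeogenesis promoters, against 0.938% of tested genes, and the FOXO element GTAAACA in 2 of 16 promoters of the insulin and FOXO list, against 3.30% of tested genes. The PPAR element, a repeat of AGGTCA after 1 base of any kind, stood in 0 of 20 and 0 of 13 promoters of the mitochondrial and the peroxisomal oxidation lists, against 0.0479% of tested genes. Matches were also found in other lists. TGACGTCA and GTAAACA each stood in 2 of 21 lipogenesis promoters. TCACNCCAC stood in 1 of 21 folding, 1 of 16 insulin and FOXO, 1 of 20 mitochondrial and 1 of 13 peroxisomal oxidation promoters. It stood in 0 of 13 gluconeogenesis and 0 of 21 lipogenesis promoters. A match is a description of letters and not of binding.

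The integrated stress response, which answers amino acid shortage through ATF4, had 3 of 16 genes higher and 2 lower, near the 16.2% and 18.3% of all genes. Atf4 (0.051), Ddit3 (0.25) and Asns (0.65) were not called. Atf5 rose by 1.03 ± 0.11 and Sesn2 by 0.73 ± 0.21, while the glutathione-degrading enzyme gene Chac1 had 1.38, 1.34, 0.937 and 0.413 CPM in fasted WT livers, against 7.05, 7.91, 7.41 and 7.55 CPM in fed WT livers. Chac1 was lower in every fasted library, at -2.88 ± 0.40. Heat shock genes of the cytosol split the fasted livers: Hspa1b had 3.93, 5.81, 3.70 and 28.7 CPM in fasted WT livers, against 17.0, 7.91, 8.71 and 12.7 CPM in fed WT livers, and fasted WT replicate 4 was the highest of all 8 libraries. Hsph1 had 43.3, 68.6, 26.8 and 111 CPM in fasted WT livers, against 120.1, 112, 84.9 and 101 CPM in fed WT livers. Neither was called with all libraries (adjusted p = 0.898 and 0.113), and both were called lower without fasted WT replicate 4 (adjusted p = 0.0403 and 0.00656), Hsph1 also without replicates 2 and 4 (adjusted p = 0.000593). Of 15 heat shock genes 2 were called lower and 0 higher with all libraries, against 18.3% and 16.2% of all genes. There were 7 lower without fasted WT replicate 4 and 9 lower without replicates 2 and 4. Fasted WT replicates 4 and 2, which carried the pancreatic transcripts, were the 2 highest fasted livers for both genes, and the part of that in the heat shock counts was not tested.

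Interferon-stimulated genes were lower, with 16 of 22 called lower and 0 higher, against 18.3% and 16.2% of all genes. The median was -0.64, and the counts were 13 and 0 without replicates 2 and 4. The antiviral synthetase gene Oas2 had 3.66, 2.53, 2.05 and 3.41 CPM in fasted WT livers, against 10.5, 7.59, 5.61 and 6.27 CPM in fed WT livers. The GTPase gene Ifi47 had 14.1, 9.74, 16.9 and 12.6 CPM in fasted WT livers, against 46.0, 51.5, 26.9 and 23.8 CPM in fed WT livers. For both, fed WT replicates 1 and 2 were the highest libraries, and the fasted livers lay below all fed ones. The transcription factor Irf7 (-0.91 ± 0.21) and the ubiquitin-like Isg15 (-0.88 ± 0.23) were called lower too. Without fed WT replicates 1 and 2 the count of genes lower was 5, and without replicates 1 and 2 of both groups it was 2 (median -0.28).

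Acute-phase genes divided both groups by replicate. The serum amyloid gene Saa1 had 6365, 3143, 20.4 and 24.9 CPM in fasted WT livers, against 354, 519.7, 28.9 and 40.0 CPM in fed WT livers. Replicates 1 and 2 were high in each group and highest after the fast, and the change was not called (3.34 ± 1.86, adjusted p = 0.192). The haptoglobin gene Hp had 7409.7, 6183, 3058 and 3539 CPM in fasted WT livers, against 2445, 3527, 1888 and 1833 CPM in fed WT livers. It was called higher (1.06 ± 0.29), with fasted WT replicates 1 and 2 again on top. Fibrinogen moved the other way: Fga had 5525, 4042, 4373 and 4435 CPM in fasted WT livers, against 9824, 13256, 7441 and 7653 CPM in fed WT livers, a log2 fold change of -1.05 ± 0.15 without overlap, and Fgb and Fgg were at -0.82 ± 0.15 and -1.11 ± 0.16. The iron reductase gene Steap4, induced by inflammation, was lower (-2.72 ± 0.50), and its highest levels were in fed WT replicates 1 and 2. The chemokine gene Cxcl1 had 2.12, 1.02, 1.78 and 0.930 CPM in fasted WT livers, against 54.5, 55.0, 7.23 and 7.84 CPM in fed WT livers, among the largest falls (-4.40 ± 0.74). Of 18 genes 4 were called higher and 4 lower, against 16.2% and 18.3% of all genes, but 0 higher and 7 lower without fasted WT replicates 1 and 2. Without single libraries 1 was higher without fasted WT replicate 1 or fed WT replicate 1, 3 or 4, and 2 were without fasted WT replicate 2.

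**Figure D4:**
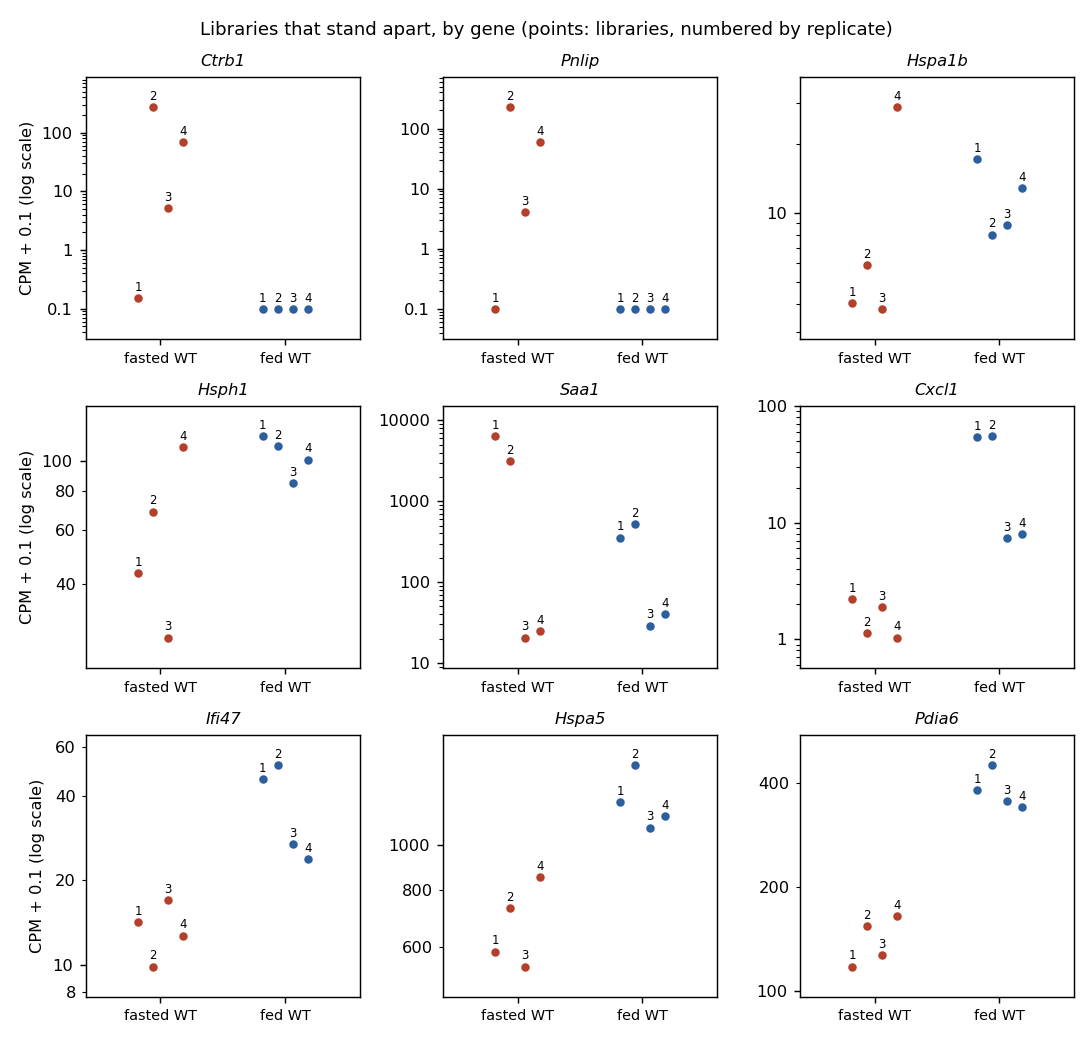
Level of 9 genes (panels; y axis, CPM on a log scale after adding 0.1) in the 4 fasted WT livers (left) and the 4 fed WT livers (right), with points labelled by replicate number. Ctrb1 is high in fasted WT replicates 2 and 4, Hspa1b in fasted WT replicate 4, and Saa1 in replicates 1 and 2 of both groups; Hspa5 and Pdia6 separate the groups.

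Some clock genes differed between the groups, and the labels give no hour of sampling, so the hour and the fast cannot be told apart for them. The output gene Per3 had 16.7, 15, 4.55 and 7.90 CPM in fasted WT livers, against 2.64, 2.04, 2.59 and 3.09 CPM in fed WT livers. Ciart, a repressor of the clock, had 10.6, 12, 1.70 and 4.96 CPM in fasted WT livers, against 0.101, 0.479, 2.41 and 1.08 CPM in fed WT livers. Per3 did not overlap, whereas Ciart in fasted WT replicate 3 lay within the fed range, and both were called higher (2.09 ± 0.45 and 2.83 ± 0.71). Npas2 (-1.97 ± 0.33) and Cry1 (-0.89 ± 0.13) were lower, whereas Per1 and Nr1d1 were not called (0.99 and -0.49). Of 19 clock genes 4 were called higher and 5 lower, near the 16.2% and 18.3% of all genes. Without replicates 2 and 4 the counts were 3 and 2, beside 13.6% and 14.5% of all genes. Without fasted WT replicate 1 alone 2 were higher, and without fasted WT replicate 4 alone 3 were lower. The call of the activator Arntl (-0.90 ± 0.21) ended without replicates 2 and 4 (adjusted p = 0.0512).

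Cell division genes were few in reads, with 9 of 29 called lower and 2 higher, against 18.3% and 16.2% of all genes. Without replicates 2 and 4 the counts were 3 and 1, against 14.5% and 13.6% of all genes. Without fed WT replicate 1 there were 5 lower, and 1 was higher without fasted WT replicate 2 or fed WT replicate 2. The ribonucleotide reductase subunit Rrm2 had 2.44, 3.01, 3.39 and 3.0 CPM in fasted WT livers, against 5.17, 6.47, 7.88 and 6.81 CPM in fed WT livers. It fell without overlap (-1.15 ± 0.22), as did the replication gene Mcm6 (-0.79 ± 0.18). Gadd45b, a stress gene, had 5.73, 6.45, 6.34 and 5.11 CPM in fasted WT livers, against 0.609, 1.68, 0.741 and 1.27 CPM in fed WT livers. It rose by 2.43 ± 0.42. Of 24 ribosome biogenesis genes 7 were called higher and 1 lower, against 16.2% and 18.3% of all genes. There were 4 higher without replicates 2 and 4, without fasted WT replicate 4 alone or without fed WT replicate 1, 3 or 4. In this list the nucleolin gene Ncl rose by 0.55 ± 0.096. Autophagy and lysosome genes were called higher in 7 of 23 and lower in 3, against 16.2% and 18.3% of all genes, with 5 lower without fasted WT replicate 1 or with scaling by library totals. Bnip3, a mitophagy receptor, had 284, 284, 276 and 259.8 CPM in fasted WT livers, against 88.1, 126, 119 and 121 CPM in fed WT livers. It rose by 1.28 ± 0.15, while the initiating kinase Ulk1 fell (-0.64 ± 0.11) and Map1lc3b was not called (0.16).

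Bile acid genes changed in synthesis and in transport. Cyp7a1, the rate-limiting enzyme of bile acid synthesis, had 127, 80.6, 393 and 54.4 CPM in fasted WT livers, against 12.7, 11.9, 8.85 and 37.0 CPM in fed WT livers. Fasted WT replicate 3 was far above the other 3 fasted livers, yet each of these lay above every fed one, and its log2 fold change was 3.22 ± 0.66 (SE; adjusted p = 0.00223 by edgeR). Cyp8b1, which sets the kind of bile acid made, rose by 1.64 ± 0.22. At the canalicular membrane the bile salt pump Abcb11 fell (-1.15 ± 0.11) and the phospholipid pump Abcb4 rose (1.37 ± 0.11). At the blood side Slco1a4 rose (2.53 ± 0.29) and Slco1a1 fell (-1.21 ± 0.18). Of the 23 genes 8 were called higher and 3 lower, against 16.2% and 18.3% of all genes (6 and 2 without replicates 2 and 4).

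In drug metabolism Por, the reductase that feeds electrons to all microsomal cytochromes P450, had 597, 677, 536 and 638 CPM in fasted WT livers, against 113, 140.0, 161 and 179 CPM in fed WT livers. It rose by 2.05 ± 0.18, Cyp2e1, which oxidises ketones and alcohols, rose by 0.70 ± 0.098, and the oxidases Cyp1a2 (-1.30 ± 0.13) and Cyp2c29 (-1.58 ± 0.18) fell. The CAR target Cyp2b10 was not called (0.30, adjusted p = 0.771). Over the list 7 of 23 genes were higher and 6 lower, against 16.2% and 18.3% of all genes. Of 16 genes of glutathione metabolism and of NRF2, the factor of oxidant defence, 3 were called higher and 4 lower, against 16.2% and 18.3% of all genes. The NRF2 targets Nqo1 and Srxn1 rose by 1.1 ± 0.17 and 1.21 ± 0.12, whereas Gclc, which limits glutathione synthesis, fell (-0.78 ± 0.14). Beside the same shares, lipoprotein genes were higher in 7 of 18 and lower in 4, with Apob at 0.52 ± 0.087, the assembly factor Mttp at 0.50 ± 0.072 and the hepatic lipase Lipc at -0.55 ± 0.084.

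Genes of the respiratory chain, in contrast to those of fatty acid oxidation, showed small changes. Of 37 nuclear genes of complexes I to V 6 were called higher and 2 lower, against 16.2% and 18.3% of all genes, and the changes ran from -0.28 to 0.37. The higher count was 3 without replicates 2 and 4, and the lower count 1 without fasted WT replicate 3. The complex II subunit Sdha fell (-0.27 ± 0.067) and the complex III subunit Uqcrfs1 rose (0.24 ± 0.056). Markers of the other cells of the liver are given beside the 16.2% and 18.3% of all genes. Macrophage markers were called higher and lower in 0 and 0 of 14 and lymphocyte or neutrophil markers in 0 and 0 of 12 by edgeR. At an unadjusted p under 0.05 these were 0 and 2 for macrophages and 1 and 0 for lymphocytes and neutrophils, and DESeq2's Wald test called 0 and 0, and 1 and 0. Their summed levels were 362 to 567 CPM in fasted WT and 381 to 623 CPM in fed WT for macrophages, and 20.6 to 27.1 CPM in fasted WT and 14.8 to 29.3 CPM in fed WT for lymphocytes and neutrophils. Endothelial markers were called higher in 1 and lower in 3 of 12, with summed levels of 469 to 490.1 CPM in fasted WT and 490 to 538 CPM in fed WT. The sinusoidal gene Gpr182 fell (-0.69 ± 0.078) and Lyve1 rose (0.60 ± 0.15). Stellate markers were called higher in 2 and lower in 2 of 12, and bile duct markers in 2 and 0 of 7. These stellate and bile duct calls were 0 to 2 in each direction when single libraries were left out. Red blood cell transcripts were called higher in 1 and lower in 1 of 7. Of 8 adipocyte markers 3 were tested. Car3 was lower, as given above, Cfd, a serine protease of fat cells, had 63, 14, 16 and 36 reads in fasted WT, against 0, 11, 3 and 16 reads in fed WT livers and was called higher (2.24 ± 0.67), and the fatty acid binding protein gene Fabp4 had 258, 237, 198 and 229 reads in fasted WT, against 163, 225, 192 and 150 reads in fed WT livers and was called higher (0.49 ± 0.13). The call of Cfd ended without fasted WT replicate 1 or fed WT replicate 3 (adjusted p of 0.0670 and 0.0506), and that of Fabp4 without replicates 2 and 4 (adjusted p = 0.0670). Of the defining markers Adipoq and Plin1 had at most 18 reads in any of the 8 libraries and Lep had 0 reads in all 8.

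Zonation markers were mixed on both sides of the lobule. Of 12 genes of the periportal side 5 were called higher and 1 lower, and of 14 pericentral genes 4 and 6, against 16.2% and 18.3% of all genes. The periportal serine dehydratase-like gene Sdsl rose by 1.82 ± 0.15 and the lipid droplet enzyme Hsd17b13 by 0.89 ± 0.089, while the periportal Cyp2f2 fell (-0.66 ± 0.14). Pericentral Oat and Cyp2e1 rose, as given above, Gulo, the last enzyme of vitamin C synthesis, fell (-0.77 ± 0.10), and the glutamine synthetase Glul was not called (-0.19). Early response genes of tissue handling were called lower in 3 and higher in 0 of 11, against 18.3% and 16.2% of all genes. Among the lower ones were Egr1 and Dusp1 (-1.29 ± 0.25). Fos and Jun were not called (-0.76 and 0.33).

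The fasting response of KO livers, which shares no library with that of WT livers, was set beside it in the same model. In KO livers 5754 genes were called between fasted and fed, 21.1% higher and 20.3% lower. Of all calls 3296 were shared in direction, which is 57.3% of the KO calls and 68.7% of the WT calls, and 23 were opposite. The difference of the responses, KO minus WT, was called for 237 genes (1.7%; 1.07% with a positive and 0.633% with a negative difference), of which 142 were called in WT livers. For 111 of these 142 the size of the KO change was smaller, a count that the choice of genes called in WT livers favours. Without fasted WT replicates 2 and 4 the difference was called for 72 genes. Left out singly, fasted WT replicate 1 brought the count to 118, fasted WT replicate 2 to 91, fed WT replicate 2 to 141 and fed WT replicate 3 to 149.

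Fatty acid and methyl genes with a large fasting rise in WT livers were among those with a difference, and the genes named here kept their call without each single WT library. Cyp4a14 had 11769.8, 10243, 11221 and 10547 CPM in fasted KO livers, against 690.1, 1321, 1428 and 2005 CPM in fed KO livers. The change was 3.01 in KO against 8.05 in WT livers, and the fed KO livers lay above all fed WT ones (difference -5.05 ± 0.77, adjusted p = 0.0116). Mat1a had 13173, 11124, 10439 and 11844 CPM in fasted KO livers, against 4035, 4362, 4158 and 4366 CPM in fed KO livers. Its rise of 1.46 in KO was smaller than that of 2.40 in WT livers (difference -0.94 ± 0.13, adjusted p = 0.00239). Oat was at 0.62 in KO and 1.46 in WT livers (difference -0.84 ± 0.14, adjusted p = 0.00763), the acyl-CoA synthetase Acss3 at 0.82 in KO and 1.58 in WT livers (difference -0.76 ± 0.12, adjusted p = 0.00563), and the transporter Slc16a5 at 1.74 in KO and 4.23 in WT livers (difference -2.49 ± 0.42, adjusted p = 0.0134). Tuba8, a tubulin gene, was at -0.20 in KO and 1.99 in WT livers (difference -2.19 ± 0.29, adjusted p = 0.00239). The monooxygenase gene Fmo1 was at -0.035 in KO and 0.81 in WT livers (difference -0.84 ± 0.14, adjusted p = 0.00763), and the NRF2 target Nqo1 at -0.16 in KO and 1.1 in WT livers (difference -1.26 ± 0.23, adjusted p = 0.0116).

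Other genes fell in WT livers and less, or not, in KO livers. Serpina7 was at -1.13 in KO and -3.59 in WT livers (difference 2.45 ± 0.37, adjusted p = 0.00813). Prok1, a secreted peptide gene, had 0.713, 1.82, 1.5 and 1.63 CPM in fasted KO livers, against 2.20, 3.06, 2.26 and 1.31 CPM in fed KO livers, and was at -0.65 in KO and -3.42 in WT livers (difference 2.77 ± 0.38, adjusted p = 0.00239). The predicted genes Gm38416 and Gm36041 were at -0.24 and -0.17 in KO, against -5.68 and -2.91 in WT livers (adjusted p of the difference = 0.00133 and 0.00239). The receptor gene Adgrv1 was at 0.44 in KO and -1.39 in WT livers (difference 1.83 ± 0.26, adjusted p = 0.00253). Chac1 had 1.97, 2.02, 5.13 and 5.63 CPM in fasted KO livers, against 4.77, 4.02, 1.96 and 3.01 CPM in fed KO livers. No change was called in KO livers (0.10, adjusted p = 0.840), and its difference of 2.98 ± 0.54 (adjusted p = 0.0142) missed the threshold without fasted WT replicates 2 and 4 (adjusted p = 0.0657). A larger rise in KO livers was seen for the antisense gene Ctcflos, at 3.11 in KO and 1.64 in WT livers (difference 1.48 ± 0.21, adjusted p = 0.00263), whose reads could be those of its sense partner, as the strand setting of the counting is not given. Differences that did not pass the threshold were those of Cpt1a (0.26 ± 0.12, adjusted p = 0.251), Fasn (0.48 ± 0.27, adjusted p = 0.387), Sqle (1.41 ± 0.44, adjusted p = 0.134) and Hspa5 (-0.50 ± 0.21, adjusted p = 0.227), which does not show that the responses were alike.

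**Figure D5:**
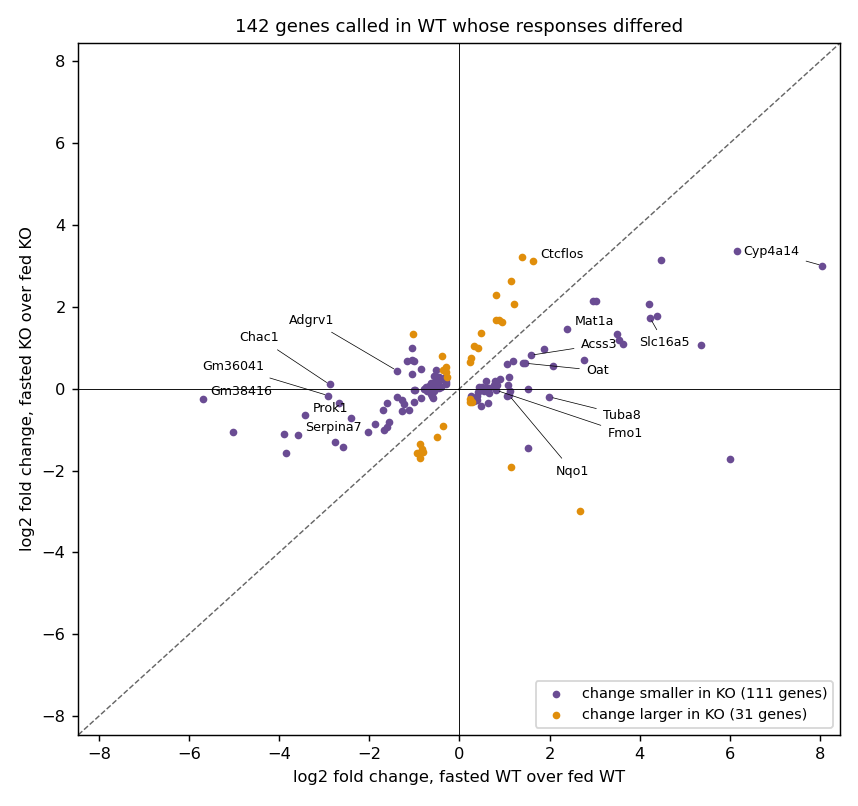
Log2 fold change on fasting in KO livers (y axis, fasted KO over fed KO) against that in WT livers (x axis, fasted WT over fed WT) for the 142 genes called in WT livers whose responses differed. The dashed line marks equal responses; the change of 111 of the 142 genes was smaller in size in KO than in WT livers.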

How the data were processed

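RNA from 16 mouse livers in 4 groups of 4 was sequenced as stranded poly(A) libraries. The deposited values are whole read counts per gene on GRCm38, made by the authors with cutadapt 1.8, STAR 2.5.3a and HTSeq 0.9.1 per the submitters' processing notes; for the counting, neither its strand setting nor the annotation release is named there. The 5 summary lines that name no gene, among them alignments that were not unique (40.4 to 45.8% of the counted alignments per library), reads in no feature (2.98 to 3.78%) and ambiguous reads (1.05 to 1.46%), were kept out of library sizes and tests. Genes whose reads map to several copies are therefore undercounted.

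Genes were filtered with filterByExpr, scaled by TMM and fitted in edgeR 4.0.16 (R 4.3.3) with all 16 libraries as 4 groups, glmQLFit with robust estimation and glmQLFTest. The contrasts were fasted WT minus fed WT and the difference of the fasting responses, KO minus WT, with Benjamini-Hochberg adjustment over the 13905 tested genes and a threshold of 0.05. Each SE is the absolute log2 fold change over the root of F. The common biological coefficient of variation came to 0.138, on 12 residual degrees of freedom. On simulated counts with 13724 genes tested, the fit called 34 of 67 genes given a 1.5-fold change, 52 of 66 given 2-fold and 64 of 66 given 4-fold, and made 6 false calls.

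The libraries of a group differed beyond sampling noise, so none was merged. Alternatives were DESeq2 1.42.0 (size factors, and its Wald test), library totals, no filter, a block for the replicate number, no robust estimation, only the 8 WT libraries, and left-out libraries. The 43 gene lists (814 memberships) and the comparison itself were chosen with earlier results of these data known. Genes named by rule were Slc25a47 and the 12 largest rises and falls among called genes at a mean of at least 2 CPM. These had no overlap between the groups, and predicted genes, pseudogenes and acinar genes were left out. The rule also named the called genes with the 8 largest differences in mean CPM in each direction. It named the first 3 members and the 5 called members of smallest p of each list. It further named the 5 genes of smallest p per direction that were called both for fasting and for the difference of responses. All other genes were named after their values were seen, and a few genes that the rule names are not reported here. Promoters of 250 bases before to 50 bases after each gene start came from RefSeq on GRCm38.p6, matched by symbol. Each was searched on both strands for TGACGTCA, TTACGTCA, TCACNCCAC, GTAAACA, the endoplasmic reticulum stress element and the PPAR element.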

Additional observations from a re-analysis of the deposited data

Results flagged for a closer look

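Among the 4 livers of a group, single libraries stood apart by Dixon's test in 27 of 524 combinations of a named gene and a group (5.15%), and chance gives about 1 in 20. In fasted WT replicate 1, set against the other 3 fasted WT livers, Ahcy was 759 CPM against 709 to 716 CPM, Cyp4a14 was 9148 CPM against 11619 to 11906 CPM, Fgb was 5753 CPM against 4305 to 4347 CPM, Ghr was 385 CPM against 332 to 337 CPM, Hadha was 643 CPM against 754 to 766 CPM, Lyve1 was 16.1 CPM against 19.2 to 19.7 CPM, Psmb8 was 19 CPM against 14.4 to 15 CPM and Sdsl was 18.1 CPM against 25.5 to 26.9 CPM. In fasted WT replicate 2, set against the other 3 fasted WT livers, Hpd was 3162 CPM against 2882 to 2914 CPM, Pnpla5 was 0.0538 CPM against 0 CPM and Slc25a20 was 229.7 CPM against 219.9 to 220.2 CPM. That level of Pnpla5 is below the 0.161 CPM that a count of 0 allows in this library. In fasted WT replicate 3, set against the other 3 fasted WT livers, Acss3 was 61.8 CPM against 59.2 to 59.6 CPM and Cited2 was 15.4 CPM against 10.3 to 10.9 CPM. In fasted WT replicate 4, set against the other 3 fasted WT livers, Cyp2f2 was 1360.2 CPM against 937 to 972 CPM, Ddit3 was 6.30 CPM against 2.92 to 3.33 CPM and Hspa1b was 28.7 CPM against 3.70 to 5.81 CPM. In fed WT replicate 1, set against the other 3 fed WT livers, Mcm6 was 7.96 CPM against 4.41 to 4.63 CPM and Mug1 was 6882 CPM against 8788 to 8978 CPM. In fed WT replicate 2, set against the other 3 fed WT livers, Acot2 was 0.759 CPM against 1.81 to 2.03 CPM, Arntl was 36.5 CPM against 30.4 to 30.6 CPM, Creld2 was 89.9 CPM against 59.1 to 61.1 CPM, Dnajc3 was 383 CPM against 285 to 300.4 CPM, Fmo1 was 171 CPM against 188 to 189.9 CPM, Pfkfb1 was 91.4 CPM against 47.3 to 53.3 CPM and Srebf2 was 54.7 CPM against 51.6 to 51.8 CPM. In fed WT replicate 3, set against the other 3 fed WT livers, Hsd17b7 was 57.5 CPM against 64.9 to 66.0 CPM. In fed WT replicate 4, set against the other 3 fed WT livers, Cyp7a1 was 37.0 CPM against 8.85 to 12.7 CPM.

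The fasting responses of KO and WT livers differed by the test of the difference itself (adjusted p under 0.05) for 29 of the named genes. For genes higher in fasted WT livers whose change in KO livers was smaller, the log2 difference, KO minus WT, was -4.30 for Acot3, -0.76 for Acss3, -2.77 for Cyp4a10, -5.05 for Cyp4a14, -2.14 for Cyp4a31, -7.73 for Dmbt1, -1.31 for Ehhadh, -0.84 for Fmo1, -1.53 for Fmo2, -2.05 for Lepr, -0.94 for Mat1a, -1.26 for Nqo1, -0.84 for Oat, -2.49 for Slc16a5, -0.90 for Slc27a1 and -2.19 for Tuba8. For genes lower in fasted WT livers whose change in KO livers was smaller, it was 0.38 for Acadsb, 1.83 for Adgrv1, 2.98 for Chac1, 2.78 for Fabp5, 2.74 for Gm36041, 5.44 for Gm38416, 1.18 for Inhba, 2.77 for Prok1 and 2.45 for Serpina7. The change was larger in KO livers where the difference was -0.82 for Calr, 1.48 for Ctcflos, 1.84 for Inhbe and -0.75 for Pdia4. Leaving out single WT libraries ended the call of the difference for Acadsb without fasted WT replicate 1, 2 or 3 or fed WT replicate 2, 3 or 4 (adjusted p of 0.0576 to 0.0975), Acot3 without fasted WT replicate 1 or 2 or fed WT replicate 1, 2 or 4 (adjusted p of 0.0576 to 0.0712), Cyp4a10 without fasted WT replicate 2 (adjusted p of 0.0549), Cyp4a31 without fasted WT replicate 1, 2 or 4 or fed WT replicate 1 or 3 (adjusted p of 0.0531 to 0.0798), Dmbt1 without fasted WT replicate 1 or fed WT replicate 1, 3 or 4 (adjusted p of 0.0519 to 0.0543), Ehhadh without fasted WT replicate 2, 3 or 4 or fed WT replicate 1, 2 or 3 (adjusted p of 0.0543 to 0.0734), Fabp5 without fasted WT replicate 1 or fed WT replicate 2 (adjusted p of 0.0561 to 0.0608), Inhba without fasted WT replicate 1 or fed WT replicate 1 or 2 (adjusted p of 0.0502 to 0.0597), Lepr without fasted WT replicate 2 or 3 or fed WT replicate 2, 3 or 4 (adjusted p of 0.0531 to 0.0813) and Pdia4 without fasted WT replicate 2 or fed WT replicate 3 (adjusted p of 0.0502 to 0.0620). Leaving out fasted WT replicates 2 and 4 together ended it for Acadsb, Acot3, Calr, Chac1, Cyp4a10, Cyp4a31, Dmbt1, Ehhadh, Fabp5, Inhba, Inhbe, Lepr, Pdia4 and Slc27a1 (adjusted p of 0.0632 to 0.122).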

How the results depend on the processing

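No named gene that was called with all libraries was called in the opposite direction under any alternative run, and a change of sign was counted only where one of the 2 values passed the threshold. The acinar gene Cela1, not called with all libraries (1.14), was called lower without fasted WT replicates 2 and 4 (-1.73). The total of 4799 called genes (2252 higher, 2547 lower) was 3114 (1476 and 1638) at an adjusted p under 0.01 and 1050 (539 and 511) with a difference of at least 2-fold. It was 2460 (1127 and 1333) without replicates 1 and 2 of both groups, an alternative added after the data were seen, with 2 libraries left in each WT group. It was 4025 without fasted WT replicates 2 and 4, and the other alternatives gave 3400 to 4880 calls, the highest by DESeq2's Wald test. With scaling by library totals the median over all genes moved to -0.064, and 1861 genes were higher and 2893 lower. The difference of the fasting responses (237 genes) was called for 529 by DESeq2's Wald test, 72 without fasted WT replicates 2 and 4, 23 at an adjusted p under 0.01, and, in alternatives added later, 64 without fed WT replicates 1 and 2, 23 without fasted WT replicates 1 and 2 and 19 without replicates 1 and 2 of both groups. Leaving out single WT libraries gave 4145 to 4692 called genes, 1917 to 2228 higher, 2211 to 2464 lower, 513 to 599 higher and 459 to 551 lower by at least 2-fold, and 91 to 227 differences of response. Fasted and fed WT libraries of equal replicate number correlated weakly (0.14, 0.033, 0.013 and 0.093). The fit with the replicate block called 2239 genes higher and 2579 lower and 218 differences of response. Replicates 1, 2 and 4, but not 3, correlated best with their own number. Saa1 was high in replicates 1 and 2 of both groups, and whether equal numbers share a batch was not tested. Among fasting calls of named genes, those of Cfd, Derl3, Elovl5, Pck1, Pnlip and Ppara ended without the filter on low counts, those of Ctrb1, Gp2 and Pnlip with the replicate block, those of Cfd, Hp and Pzp with only the 8 WT libraries, and those of Cfd, Ciart, Cyp7a1, Isg15, Sik1 and Steap4 with only these and the block. Depth limits genes with few reads: a count of 0 in a WT library allows up to 3 reads, for counting error only, which is 0.120 to 0.161 CPM.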

Other observations

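Gene families were also looked at after their values were seen, and their counts are descriptions, beside 16.2% higher and 18.3% lower over all genes. They overlap the lists, since Psmb8 and Psmb9 stand in the interferon list, Pex11a in the peroxisomal list and Sec61a1, Sec61b and Ssr1 in the folding list. Subunits of the proteasome, which degrades ubiquitin-tagged proteins, were called higher in fasted WT livers in 18 of 38 tested genes and lower in 3, with a median log2 fold change of 0.18. The largest rises were those of Psmd9, an assembly chaperone (0.89 ± 0.090), and Psmd4, a ubiquitin receptor (0.79 ± 0.076). The 3 lower genes were the interferon-induced catalytic subunits of the immunoproteasome, Psmb10 (-0.76 ± 0.14), Psmb8 (-0.61 ± 0.15) and Psmb9 (-0.52 ± 0.16). Psmb8 was not called without fasted WT replicates 2 and 4 (adjusted p = 0.0511), nor Psmb9 without fasted WT replicate 1 or fed WT replicate 1 (adjusted p of 0.0504 and 0.0844). Without fed WT replicates 1 and 2, where interferon-stimulated genes were highest, only Psmb10 of the 3 was called lower.

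The proteins that carry new chains into the endoplasmic reticulum, trim their signals and attach sugars were lower in 18 of 23 tested genes and higher in 0 (median -0.71; 16 lower without replicates 2 and 4). Ddost and Stt3a of the oligosaccharyltransferase were at -1.11 ± 0.074 and -0.85 ± 0.061, and Spcs2 of the signal peptidase at -0.93 ± 0.075. Peroxins, which build and divide peroxisomes, were higher in 9 of 16 and lower in 1 (median 0.29), with Pex19 at 0.86 ± 0.070 and the division factor Pex11a, a PPARα target, at 1.36 ± 0.14. Tubulin genes were lower in 8 of 10 and higher in 1 (median -0.87), and 5 were lower without fed WT replicate 1 or fed WT replicate 2. Tubb5 was at -1.05 ± 0.075 and Tuba1a at -1.43 ± 0.19, while Tuba8 rose (1.99 ± 0.24).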
